A study of Homo sapiens with 4 samples.

Results

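Cyclin-dependent kinases (CDKs) and the proteins that hold them in check were followed through 10 genes on whole genome arrays of the human line MCF10A.B2, namely the kinases CDK1, CDK2, CDK4 and CDK6, the inhibitors CDKN1A, CDKN1B, CDKN1C, CDKN2A and CDKN2C, and the CDK-associated phosphatase gene CDKN3. They were chosen by name, as the spots other than controls whose gene name in the array design was one of these 10, and they held 13 of 34127 probes and 10 of 27193 genes. MCF10A.B2 is a subline of MCF10A, a non-tumorigenic mammary epithelial line, and carries a chimeric ErbB2 (HER2) receptor that the synthetic dimerizer AP1510 switches on. The 2 control samples were MCF10A.B2 cells labelled as PAK1 wild type, and the 2 PAK1 shRNA samples were MCF10A.B2 cells stably carrying a tetracycline-inducible shRNA against PAK1, a kinase acting downstream of Rac and Cdc42. Both groups were grown with 5% horse serum, starved of serum for 3 h and given AP1510 for 15 min before RNA was taken, so every sample carried the chimeric receptor and had received the dimerizer. The labels do not state whether the control cells held an uninduced shRNA, and the series' design text names tumors as the source of the cells, although MCF10A.B2 is a cell line. The study's methods list wild type cells beside the shRNA cells. No group was labelled as carrying a non-targeting shRNA, so the construct, its induction and the loss of PAK1 cannot be told apart. The origin of the replicates was not stated either, so the p-values measure only the spread between these samples, which may be technical.

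Each sample was hybridized in 1 colour to 1 array, all 4 arrays lay on 1 slide, and 83.2%, 79.2%, 80.2% and 78.9% of probes were well above background on control 1, control 2, PAK1 shRNA 1 and PAK1 shRNA 2. PAK1 itself went from 11.23 ± 0.06 to 10.48 ± 0.05 on the normalized log2 scale (mean ± SD, n = 2 each, control first). Its change of -0.76 (standard error 0.08) had a Benjamini-Hochberg adjusted p of 0.00018 in limma and left 59.2% of the control level. All 8 basal mammary markers were well above background on all 4 arrays, as were 5 of 6 luminal markers, PGR being the exception. The leukocyte markers PTPRC and CD3E stood between 7.04 and 7.84 (group means, log2 intensity) and did not pass the test, while CD14, which epithelial cells can also express, rose by 1.23 in a fit without PAK1 shRNA 2, where the scanner software marked its spot as faulty, and 4 of 6 fibroblast and endothelial markers were well above background on all 4 arrays.

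CDKs drive the cell cycle only when bound to a cyclin. CDK4 and CDK6 with D-type cyclins phosphorylate the retinoblastoma protein in G1, CDK2 with E-type and A-type cyclins acts at the start of and through S phase, and CDK1 with A-type and B-type cyclins brings cells into mitosis. The CIP/KIP inhibitors p21 (CDKN1A), p27 (CDKN1B) and p57 (CDKN1C) bind cyclin-CDK complexes, whereas the INK4 inhibitors, among them p16 (CDKN2A) and p18 (CDKN2C), bind CDK4 and CDK6 alone. CDKN3 encodes KAP, a phosphatase that removes the activating phosphate from the T-loop of CDKs, CDK2 above all. Receptors of the ErbB family are known to push mammary epithelial cells through G1 by way of cyclin D and CDK4.

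The probe sequences are shown because 3 of these genes were read by probes at separate places that could be set side by side, and because a probe reads only its own stretch of a transcript. Only probes within coding sequence are printed, with the letters of the array design, 5′ to 3′.

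CDK1: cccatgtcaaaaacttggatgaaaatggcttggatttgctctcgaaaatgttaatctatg
CDKN3, first probe: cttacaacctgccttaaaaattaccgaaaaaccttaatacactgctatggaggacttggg
CDKN3, second probe: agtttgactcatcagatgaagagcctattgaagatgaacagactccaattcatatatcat
CDKN1B, second probe: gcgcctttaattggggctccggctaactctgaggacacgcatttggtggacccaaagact
CDKN2A, second probe: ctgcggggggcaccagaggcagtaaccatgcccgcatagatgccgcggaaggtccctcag

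On hg19, the build of the array files, the CDK1 probe lay at chr10:62552004-62553650, over 1647 bases of genome for a 60-base probe, so it crosses a splice junction. The first CDKN3 probe lay at chr14:54878384-54882635, over 4252 bases, and likewise crosses a junction, while the second lay at chr14:54866634-54866693. The second CDKN1B probe lay at chr12:12871119-12871178 and the second CDKN2A probe at chr9:21970901-21970960. The first CDKN1B probe was placed at chr12:12874940-12874999 and the first CDKN2A probe at chr9:21968039-21968098. The remaining genes had 1 probe each, at chr12:56365789-56365848 for CDK2, chr12:58142263-58142322 for CDK4, chr7:92234443-92234502 for CDK6, chr6:36652178-36652237 for CDKN1A, chr11:2904903-2904962 for CDKN1C and chr1:51439963-51440022 for CDKN2C. The first probe named is the brighter one and stands for the gene. No annotation of hg19 was used here, and no probe of the 13 was saturated on any array.

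Through at least 1 probe each of the 10 genes stood well above background on every array, and all 10 passed the filter on low values, among 21990 genes tested. CDKN2A did so through its first probe alone, and its second was not well above background on any array. Of the 10, 7 fell in PAK1 shRNA cells, where 32.0% of all genes tested did, and 3 rose, where 30.6% of all genes did (adjusted p under 0.05, limma). The 3 that rose include CDKN2A, whose locus MCF10A is known to have lost, and what its first probe read was not tested. In either direction 62.5% of all genes were called, so a call alone sets a gene little apart in this comparison. The 2 control arrays and the 2 PAK1 shRNA arrays did not overlap in any of the 10 genes, nor did they in 78.0% of all genes. The sizes of change spread the 10 genes more than the calls did. At least 2-fold lower were CDK1, CDK2, CDKN1C and CDKN3, 4 of 10 against 9.09% of all genes, and at least 2-fold higher was CDKN1A, 1 of 10 against 8.80%. CDK2 sat at that limit and was under 2-fold lower with cyclic loess (-0.99), median centring (-0.97), the background model fitted on all spots (-0.64), without PAK1 shRNA 1 (-0.98) and without control 2 (-0.97), which left 3 of 10, and CDKN1A was under 2-fold higher with the model fitted on all spots (0.93). Over the 10 genes the median change was -0.88 (log2), and over all genes tested it was 0.02. In RNA of whole cultures, fewer cells in a phase that uses a gene and less of its RNA in each cell cannot be told apart, which holds for every level given here.

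**Figure D1:**
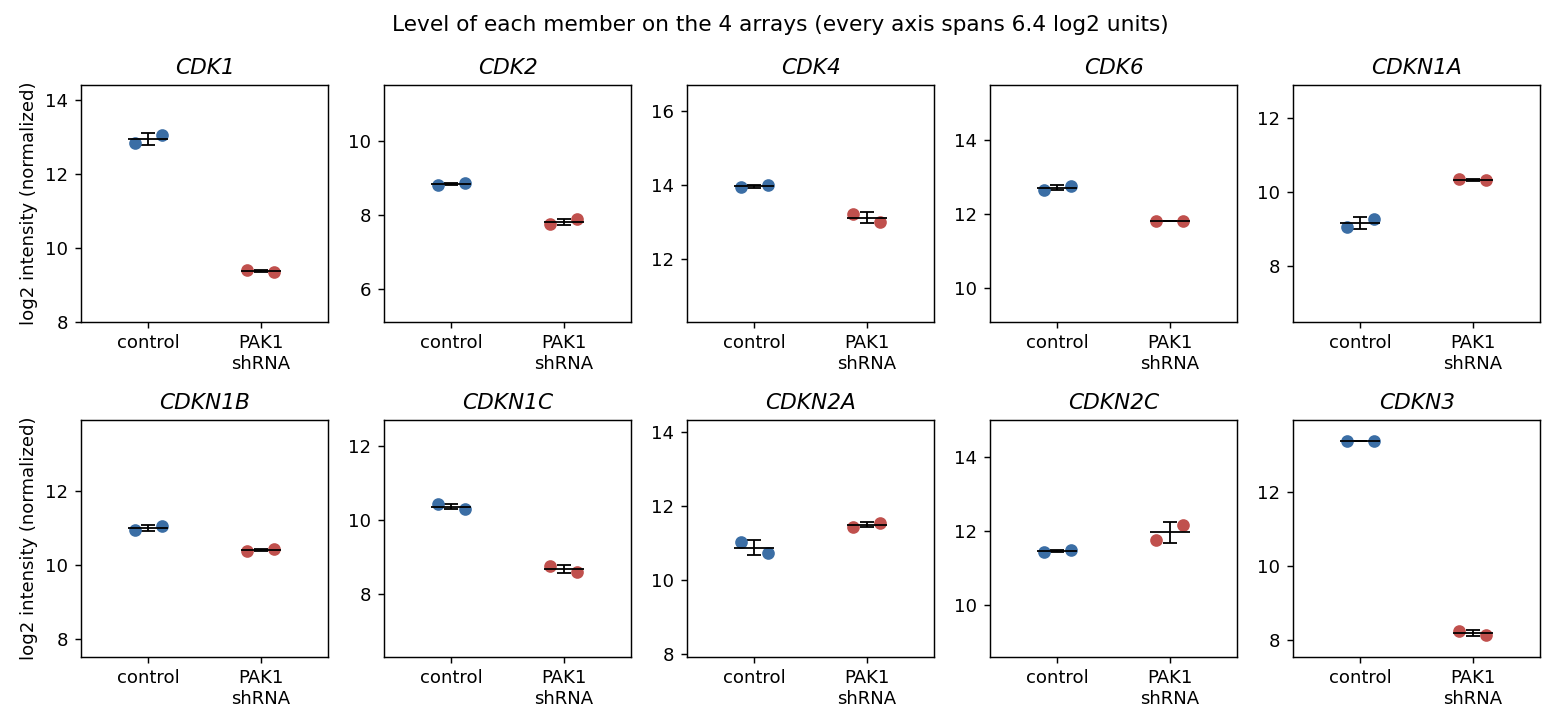
Normalized log2 intensity (vertical axis) of each of the 10 genes on the 2 control arrays (blue) and the 2 PAK1 shRNA arrays (red), where each point is 1 array, the long line is the group mean and the bars are ± 1 SD. Every axis spans the same number of log2 units, so the steps can be compared by eye, and those of CDKN3 and CDK1 are far deeper than the others. Levels of different genes come from different probes and cannot be set against each other.

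CDKN3 fell most. Its first probe read 13.37 on both control arrays, against 8.25 and 8.13 with PAK1 shRNA (normalized log2 intensity). The group means were 13.37 ± 0.0019 (SD, n = 2) and 8.19 ± 0.08 (SD, n = 2), which gave a log2 fold change of -5.18 (standard error 0.08, limma adjusted p = 2.7e-07) and a level 36.3-fold lower. Of the 21990 genes tested, 6 had a lower log2 fold change. The spots behind it gave mean signals of 13861 and 10933 before any correction in control cells, against 253 and 231 with PAK1 shRNA. The second CDKN3 probe read 11.33 and 11.39 in control and 7.01 and 6.72 in PAK1 shRNA cells. Its step of -4.49 on the log2 scale (standard error 0.11, adjusted p over all probes 3.3e-07) went the same way. In PAK1 shRNA cells it stood near the lowest signals counted as well above background, 6.21 and 6.17 on these arrays. The sizes of the steps of the first and second probe were therefore not compared. When the background model was fitted on all spots the first probe gave -4.40.

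CDK1, the mitotic kinase, stood at 12.83 and 13.04 in control cells and at 9.39 and 9.35 with PAK1 shRNA. Its mean went from 12.94 ± 0.15 (SD, n = 2) to 9.37 ± 0.03 (SD, n = 2), a log2 fold change of -3.57 (standard error 0.09, adjusted p = 9.3e-07) that left 8.44% of the control level, and 83 of the genes tested had a lower value. The uncorrected signal was 9721 and 8927 in control and 560 and 535 in PAK1 shRNA cells. Its probe was printed 10 times on each array, and the SD of log2 signal among these spots within an array ran from 0.17 to 0.21, far below the step between groups. The study picked CDK1 from these same arrays for display, so its direction here is not independent evidence. Every other gene here was read from the same arrays and is not independent of the study's array results either.

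The G1 and S phase kinases fell by less, to between 49.6% and 55.2% of the control level. CDK2, the partner of cyclins E and A, read 8.82 and 8.87 in control and 7.78 and 7.89 in PAK1 shRNA cells, a log2 fold change of -1.01 (standard error 0.08, adjusted p = 5.7e-05) with an interval (95%) from -1.20 to -0.82. CDK4, the kinase bound by cyclin D1 in many epithelia, read 13.93 and 13.99 in control and 13.21 and 13.00 in PAK1 shRNA cells, or 55.2% of the control level (log2 fold change -0.86, standard error 0.09, adjusted p = 0.00026, interval -1.08 to -0.63). CDK6, its close relative, read 12.65 and 12.75 against 11.80 on both PAK1 shRNA arrays, or 53.7% of the control level (log2 fold change -0.90, standard error 0.08, adjusted p = 8.1e-05, interval -1.08 to -0.72). The intervals of the 3 kinases overlapped, and differences between their changes were not tested. All of them lay well apart from the interval of CDK1, -3.79 to -3.34.

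The 3 CIP/KIP inhibitors did not move together. CDKN1A, a p53 target that also answers to many stress and growth factor signals, rose, from 9.04 and 9.26 in control to 10.33 and 10.30 in PAK1 shRNA cells. The means were 9.15 ± 0.16 and 10.32 ± 0.02 (SD, n = 2 each), and the step of 1.17 on the log2 scale (standard error 0.09, adjusted p = 6.7e-05) was a 2.25-fold rise that 1563 genes exceeded. Its uncorrected signals did not overlap either, at 692 and 626 in control against 1068 and 1040.

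CDKN1B, whose protein p27 is governed largely through its breakdown, fell. Its first probe read 10.95 and 11.06 in control and 10.39 and 10.44 in PAK1 shRNA cells, a log2 fold change of -0.59 (standard error 0.08, adjusted p = 0.00064) that left 66.3% of the control level. Its second probe, in the coding sequence, read 10.14 and 10.25 against 9.39 on both PAK1 shRNA arrays and gave -0.81 (standard error 0.08, adjusted p over all probes 9.7e-05), so the 2 places on the transcript gave the same direction. CDKN1C, the imprinted member of the family, fell further, from 10.42 and 10.31 to 8.75 and 8.60. Its log2 fold change of -1.69 (standard error 0.09, adjusted p = 1.1e-05) left 31.0% of the control level, and 662 genes had a lower value. The intervals of CDKN1B, -0.78 to -0.40, and of CDKN1C, -1.90 to -1.48, lay below 0 and did not meet, while that of CDKN1A ran from 0.94 to 1.40.

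The INK4 inhibitors CDKN2A and CDKN2C showed the smallest steps with CDKN1B, and both were upward. CDKN2A read 11.00 and 10.72 in control and 11.43 and 11.53 in PAK1 shRNA cells with its first probe, a log2 fold change of 0.62 (standard error 0.11, adjusted p = 0.0027). Before correction and normalization its signals overlapped, with 2796 and 1790 in control against 2321 and 2448. The second CDKN2A probe, whose sequence is shown above, was not well above background on any array, at 6.14 and 6.14 in control and 6.26 and 5.98 in PAK1 shRNA cells, where the lowest signals counted as well above background ran from 6.12 to 6.21 between arrays. MCF10A is known to have lost the CDKN2A and CDKN2B locus. CDKN2B, the neighbour that encodes p15, was also not well above background on any array, and what the first CDKN2A probe read in these cells was not tested.

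CDKN2C read 11.45 and 11.49 in control and 11.77 and 12.17 in PAK1 shRNA cells, where the 2 arrays differed from each other by more than the nearer one did from either control array. The step was 0.50 on the log2 scale (standard error 0.13, adjusted p = 0.015, interval 0.19 to 0.82), and the uncorrected signals overlapped, at 3760 and 2997 against 2924 and 3876. The call was lost when either control array was left out, with a step of 0.49 (adjusted p = 0.065) without control 1 and 0.52 (adjusted p = 0.0581) without control 2, where the size hardly moved and the standard error rose to 0.177. Leaving out PAK1 shRNA 2 gave 0.30 and leaving out PAK1 shRNA 1 gave 0.71, both still called. CDKN2D, the INK4 gene for p19, did not pass the test at 10.59 and 10.62 in control against 10.54 and 10.83 (log2 fold change 0.08, adjusted p = 0.56, interval -0.18 to 0.34).

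**Figure D2:**
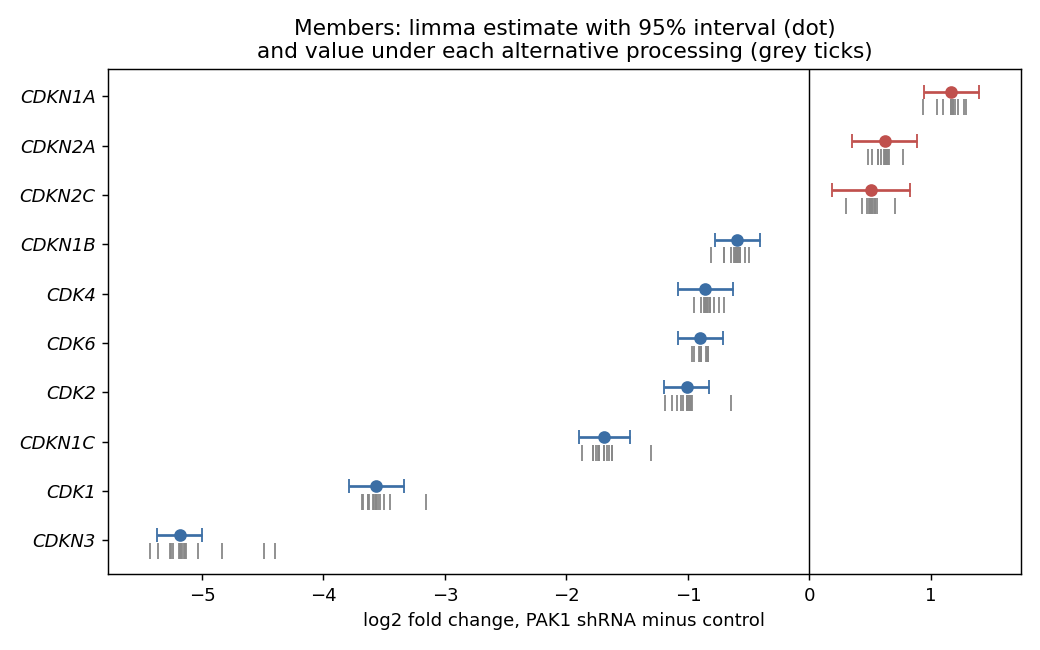
Log2 fold change of each of the 10 genes in PAK1 shRNA against control cells (horizontal axis), as the limma estimate with its 95% interval (dot and bar, red for higher and blue for lower) and as the value under each alternative processing (grey ticks). No tick of any of the 10 genes crosses 0, and the lowest value of CDKN2C, 0.30, comes closest to it.

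Other members of the CDK family moved in both directions. Of 17 other CDK genes 16 were tested, 6 were higher, 4 were lower and 6 did not pass, with a median log2 fold change of 0.07 and a range from -1.83 to 0.70, so 10 of 16 were called where 62.5% of all genes were. CDK15 was not well above background. The largest changes belonged to CDK14, a kinase that pairs with cyclin Y at the membrane, which fell by 1.83 (log2, adjusted p = 3.8e-06, and by 1.15 with the background model fitted on all spots), CDK19, a Mediator kinase, which fell by 0.92, and CDK16, another cyclin Y partner, which fell by 0.84. Of 10 cyclins that pair with CDK1, CDK2, CDK4 or CDK6, 6 fell, 2 rose and 2 did not pass, with a median of -1.17. Of all genes tested 32.0% fell and 30.6% rose. The deepest falls were -4.98 for CCNB1 and -4.87 for CCNB2, partners of CDK1, and -4.12 for CCNA2, a partner of CDK1 and CDK2 (log2 fold changes). Other A-type and B-type cyclins did not share their depth, since CCNB3 fell by 0.70, less than the CDK2 partners CCNE1 with -1.84 and CCNE2 with -1.64, and CCNA1 did not pass the test at 0.25, all 4 named after their values were seen. CCNB1 was -4.11 in the authors' processed values, and CCNA2 was -3.28 with the background model fitted on all spots. The 2 that rose were the CDK4 and CDK6 partners CCND3 with 1.22 and CCND1 with 0.64, named after their values were seen.

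Genes that act on CDKs by phosphorylation, binding or breakdown of inhibitors were lower in 9 of 13 cases and higher in 1, and 3 did not pass, with a median of -2.03. The shares over all genes tested were 32.0% lower and 30.6% higher. CDC20, an activator of the anaphase-promoting complex, fell by 4.77, CDC25C, a phosphatase that activates CDK1, fell by 4.50, and PKMYT1, a kinase that inhibits CDK1, fell by 3.61. With the background model fitted on all spots CDC20 was -4.15 and CDC25C -3.37, and scaling on the 75th percentile gave CDC25C -5.34 and CDK14 -2.42. WEE1, the other inhibitory kinase of CDK1, stood at 11.46 ± 0.12 in control and 11.47 ± 0.07 in PAK1 shRNA cells (SD, n = 2 each) and was 1 of those that did not pass, named after its values were seen. The 1 higher gene, named in the same way, was CDC37, a chaperone partner that loads CDK4 and other kinases onto HSP90, with 0.64, fitted without PAK1 shRNA 1, where its spot was marked likewise. The study also showed CCNB1, CCNA2 and CDC25C from these arrays, so they are not independent evidence either.

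Other changes accompanied those of the CDK genes, in a comparison where 32.0% of all genes tested fell and 30.6% rose. All 8 proliferation markers fell, with a median of -3.66 and a range from -4.84 to -1.55, MKI67 to 5.05% and PCNA to 34.2% of the control level. Of 16 p53 target genes other than CDKN1A, 12 rose, 2 fell and 2 did not pass, with a median of 1.00. All 12 interferon-stimulated genes rose, with a median of 6.53 and a range from 2.24 to 11.01, and 4 of 8 basal markers fell while 2 rose. The part of these changes in those of the 10 CDK genes was not tested.

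Promoter sequence was looked at after the values were seen, because CDK1 and CDKN3 fell together by more than the other 8 genes. Promoters of mitotic genes often carry a cell cycle homology region (CHR) beside CCAAT boxes. The CHR is the element through which such genes are held down outside G2 and mitosis. The 250 bases before each RefSeq start on GRCh38.p14 were read for the 8 genes that could be matched, 13 windows in all, and CDK2 and CDKN1C were not matched. The windows of the 2 genes that fell most are printed with the CHR letters TTTGAA, matches to the CCAAT box and E2F letters in capitals, on either strand, and that of CDKN1A, which rose, is given for comparison.

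CDK1, second start, chr10:60778228-60778477, plus strand: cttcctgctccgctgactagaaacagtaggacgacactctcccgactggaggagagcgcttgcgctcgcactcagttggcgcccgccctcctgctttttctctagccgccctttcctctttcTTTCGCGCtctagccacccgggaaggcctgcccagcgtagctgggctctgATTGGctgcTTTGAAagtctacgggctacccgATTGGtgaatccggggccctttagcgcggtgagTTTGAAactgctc
CDKN3, chr14:54396757-54397006, plus strand: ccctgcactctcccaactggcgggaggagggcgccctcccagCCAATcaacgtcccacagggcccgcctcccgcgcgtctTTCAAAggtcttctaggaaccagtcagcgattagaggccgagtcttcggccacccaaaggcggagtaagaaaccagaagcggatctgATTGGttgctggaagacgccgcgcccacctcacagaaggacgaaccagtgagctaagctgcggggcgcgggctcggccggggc
CDKN1A, chr6:36678464-36678713, plus strand: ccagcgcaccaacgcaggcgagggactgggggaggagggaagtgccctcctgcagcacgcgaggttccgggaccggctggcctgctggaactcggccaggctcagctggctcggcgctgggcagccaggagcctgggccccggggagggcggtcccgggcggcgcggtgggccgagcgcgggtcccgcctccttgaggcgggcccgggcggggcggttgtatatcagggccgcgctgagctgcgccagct

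In the CDK1 window the CHR letters began 69 and 13 bases before the start, and in the CDKN3 window 170 bases before it, on the minus strand. CHR letters stood in 3 of the 13 windows, which were those of CDK1 and CDKN3 alone, and in 13.3% of all 35116 windows. CDK1 has 2 windows that overlap in part. The CHR letters in its first window began 161 bases before that start and lay outside the overlap. CCAAT was found for CDK1, CDKN1B and CDKN3, which fell, for CDKN2C, which rose, and in 32% of all windows. It was not found for CDK4 and CDK6, which fell, or for CDKN1A and CDKN2A, which rose. The E2F letters searched (TTTCCCGC, TTTCGCGC, TTTGCCGC and TTTGGCGC) were found in the second CDK1 window alone and in 2.79% of all windows. The GC box GGGCGG stood in 9 of 13 windows, of 7 genes, and in 42.6% of all windows, and among the printed windows CDKN1A held several, some of which overlap each other. The interferon response core, GAAA, any 2 letters and GAAA again, was in none of the 13 windows and in 3.02% of all. Matches of letters describe the windows, binding was not measured, and any part of these letters in the changes was not tested.

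**Figure D3:**
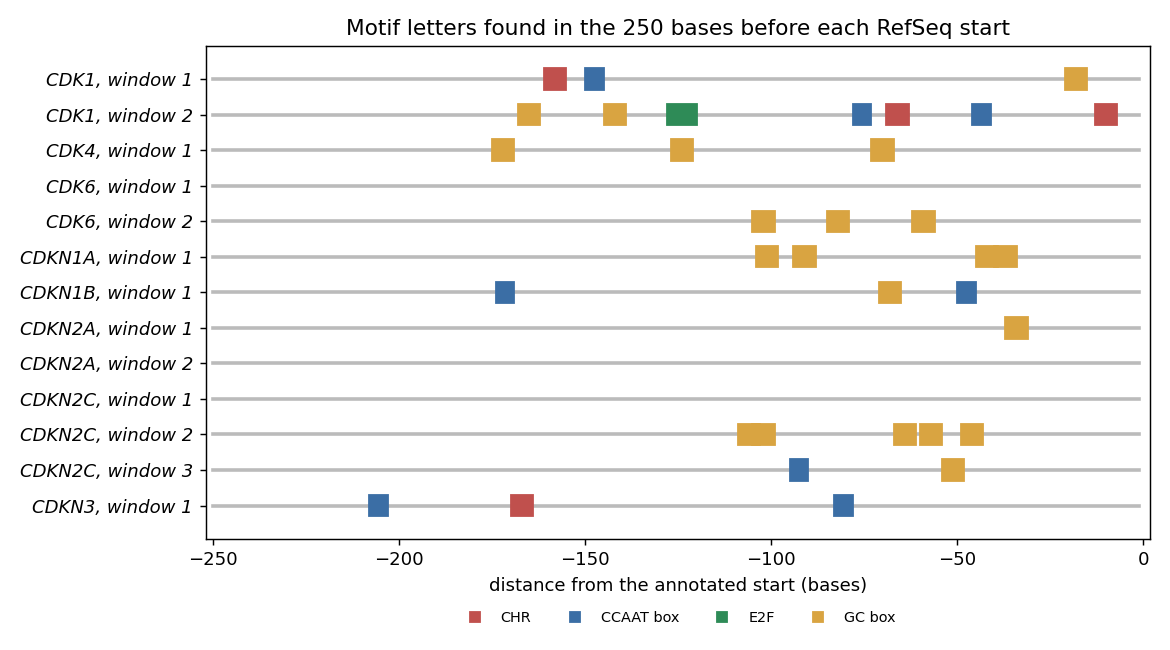
Places of 4 sequence motifs, found on either strand, in the 13 promoter windows of 8 of the genes (rows), by distance in bases from the annotated start (horizontal axis). The red CHR marks occur in the rows of CDK1 and CDKN3, and GC box marks occur in 9 rows.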

How the data were processed

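RNA from 2 control and 2 PAK1 shRNA samples (0.5 µg each) was labelled with Cy3 and read on Agilent whole genome arrays. Spot intensity was deposited by the authors as Feature Extraction wrote it (version 9.5 per the labels, 9.5.3.1 per the file headers), with probe positions on hg19, and a table of log2 values in which replicates were kept apart, used here as an alternative only. Samples were grouped by their labels.

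Spot means and local backgrounds were corrected with normexp (offset 50), the method the study names. The model was fitted without spots of flagged local background, since a fit on all spots put the background mean at -666.3 and -739.7 for control against -10.7 and -10.23 for PAK1 shRNA, and -9.195, -12.06, -10.37 and -9.784 without them. Control and flagged spots were dropped, arrays were quantile normalized, spots of a probe averaged, and a probe was kept if 1 group or more had it well above background on both arrays. A gene was represented by its brightest probe (highest mean). Genes were tested with limma 3.58.1 in R 4.3.3 (Benjamini-Hochberg, 0.05). The number of arrays limits the precision. On simulated data for this comparison (21990 genes, 200 changed), limma recovered 96% of genes given a log2 change of 1 and 13% of genes given 0.5, and called 10 unchanged genes. In the real data 62.5% of genes were called, a far larger share than was changed in the simulation. The adjusted p depends on that share, so these recovery rates do not carry over to the real arrays.

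The 10 genes and all lists were chosen with earlier results of these data known. Named were the 10 genes, PAK1, MKI67, PCNA, CDKN2B, CDKN2D and, from each list of other CDK genes, the 3 called genes of largest change. Alternatives changed the normalization, the background correction, the signal column, the treatment of flags, the filter, the choice of probe, the test and its threshold, added the replicate number as a block, or dropped 1 array at a time. All arrays shared 1 slide, so no slide block was possible. The mouse arrays were not analysed here, and 1 leukocyte marker is not reported here. Promoters are those of RefSeq (GRCh38.p14).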

Additional observations from a re-analysis of the deposited data

How the results depend on the processing

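The 10 genes kept their direction under all alternatives run, and 195 of their values also kept their side of the threshold while 7 did not. The exceptions were CDKN2A and CDKN2C. The study's array test is the limma fit, and the unpaired test that its methods name for statistics in general was an alternative. With that unpaired test, CDKN2A (0.62) had an adjusted p of 0.0985 and an unadjusted p of 0.0556, and CDKN2C (0.50) had 0.189 and 0.128, so the higher genes among the 10 were 1 both with and without adjustment. CDKN2C also missed an adjusted p under 0.01, and leaving out single arrays gave it 0.30 to 0.71. The genes called over the whole array were 4179 higher and 4553 lower with the adjusted unpaired test. Among genes acting on CDKs, the higher ones were 2 with cyclic loess and with normexp fitted on all spots, 0 with the unpaired test adjusted or not, and 0 to 2 with single arrays left out. The higher cyclins were 1 with the adjusted unpaired test and with the authors' processed values. CDKN2D, not called, was -0.038 under median centring and -0.072 to 0.228 with single arrays left out. The cause was not tested. Scaling on the 75th percentile brought the median over all genes to 0.12, and median centring to 0.14. Same-numbered arrays did not deviate together (r = 0.012 over 21023 genes, which are not independent replicates), so no pairing was taken from their numbers. With the replicate block, 6923 genes were higher and 7123 lower, and of the 10 genes 3 were higher and 7 lower. The second CDKN2A probe and CDKN2B were not well above background on any array. In PAK1 shRNA cells CDC25C read only 7.20 and 7.07, and CDK14 7.23 on both arrays (normalized log2 intensity). With a normexp offset of 16 their log2 fold changes were -4.89 and -2.11, so these sizes depend on the background correction.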
